A study of Mus musculus with 26 samples.

Results

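The 37 genes described here encode glutamate receptor subunits and the scaffold proteins beneath them in the postsynaptic density. They were taken by symbol from a list of 23 receptor and 14 scaffold genes (Gria1 to Gria4, Grin1, Grin2a to Grin2d, Grin3a, Grin3b, Grik1 to Grik5, Grid1, Grm2 to Grm5, Grm7, Grm8, Homer1 to Homer3, Dlg1 to Dlg4, Shank1 to Shank3 and Dlgap1 to Dlgap4), and all 37 were found among the 31735 genes shared by the count files. No cutoff on a measured value was applied, but the list was chosen with earlier results of these data known. RNA came from the accumbens nucleus of adult Drd2-TRAP mice (line CP101), which carry an EGFP-tagged ribosomal protein L10a under the dopamine D2 receptor gene's promoter, on a background of FVB/N-Swiss Webster crossed to C57BL/6 for at least 9 generations. The mice had self-administered cocaine or saline intravenously under long access, and tagged polysomes were pulled down with antibodies against EGFP. The groups were cocaine with an escalating label (2 libraries), cocaine with a nonescalating label (5), saline (3), nonescalating cocaine followed by withdrawal (8) and saline followed by withdrawal (6), beside 2 libraries of total input RNA from 1 nonescalating cocaine and 1 saline sample. Every group carried the transgene. In the 5 nonescalating libraries the title names no withdrawal while the description field does, and the title was followed.

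Glutamate released by cortical, thalamic and limbic axons drives the medium spiny neurons of the accumbens through ionotropic receptors (AMPA, NMDA and kainate) and tunes them through metabotropic receptors coupled to G proteins. Proteins of the Dlg family hold the ionotropic receptors at the synapse, Dlgap proteins link them to Shank, and Homer ties Shank to the group I metabotropic receptors. The make-up of AMPA receptors in accumbens medium spiny neurons is known from the cocaine literature as a point of plasticity, in particular whether Gria2, which closes the pore to calcium, is present. Drd2 is also used by cholinergic interneurons, so the tag is not limited to medium spiny neurons.

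Immunopurified libraries held 1.53 to 17.4 M counts in genes (M for 1e6, median 3.25 M, n = 24), and the inputs 37.2 M (nonescalating) and 4.66 M (saline). An immunopurified library's 3 counts correspond to 0.198 to 2.19 CPM, where CPM is counts per 1e6 after TMM scaling, and all such limits cover counting error only. The tagged cells' own marker, Drd2, stood at 881 to 3102 CPM in 23 immunopurified libraries, against 391 CPM in the nonescalating input and 279 CPM in the saline input. In nonescalating replicate 4 it stood at 243 CPM, below both inputs, and that library also had the lowest sum over the 37 genes (4171 CPM, against a median of 7864 CPM over the 24 libraries and 7470 and 8998 CPM in the nonescalating and saline inputs). It also had the most of the nuclear RNA Malat1 (76804 CPM, against at most 34754 CPM in the other immunopurified libraries). Without it the order of the 37 genes by median level was the same but for an exchange of Grin2c and Grm2, and family shares moved by at most 2.36 percentage points (Homer1). Fold changes of the members named in comparisons that use it are given with and without it. Those of other glutamate synapse genes, and their list medians, are given with it only. The files of the groups without withdrawal, of the inputs and of 6 withdrawal libraries form library set 1 by the numbers in their titles, and the other 8 withdrawal libraries form set 2. Nothing says that each library is 1 animal, so every n is a number of libraries, and the p-values speak of the variation among these libraries, which may be technical.

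The 4 AMPA subunit genes share a codon in the pore loop that sets calcium permeability. In Gria2 it is the codon that RNA editing recodes from glutamine to arginine. The coding strands of GRCm38 over 33 bases around it (GENCODE M21 annotation, exon 11 in each gene, with the pore-loop codon in capitals) are shown because they mark what separates the subunits and what a count per gene cannot show. Gria1 lies on chromosome 11 (plus strand, codon 600, chr11:57243079-57243111), Gria2 on chromosome 3 (minus strand, codon 607, chr3:80706896-80706928), Gria3 on chromosome X (plus strand, codon 612, chrX:41610250-41610282) and Gria4 on chromosome 9 (minus strand, codon 608, chr9:4464122-4464154).
Gria1: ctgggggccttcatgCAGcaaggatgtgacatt
Gria2: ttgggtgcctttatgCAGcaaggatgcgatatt
Gria3: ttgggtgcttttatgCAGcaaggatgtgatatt
Gria4: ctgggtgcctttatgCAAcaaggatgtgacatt
All 4 genomic codons read as glutamine, CAG in Gria1, Gria2 and Gria3 and CAA in Gria4. Pairs of subunits were identical at 28 (Gria1 and Gria2) to 31 (Gria2 and Gria3) of the 33 bases. Editing of the Gria2 codon cannot be read from counts per gene, so the Gria2 levels below hold edited and unedited RNA alike.

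D2 polysome RNA was rich in a small set of subunits from each family. To compare genes, CPM were divided by the length of the merged exons in kb, and the medians below run over the 24 immunopurified libraries. The order began with Gria1 at 75.1 CPM per kb (21.8 to 129), the kainate receptor gene Grik3 at 64.9 (19.7 to 103), the scaffold gene Dlg2 at 60.7 (20.6 to 94.5), Shank1 at 59.9 (19.8 to 131) and Dlgap2 at 54.7 (16.01 to 79.5). Gria1 lay above Grik3 in 21 of 24 libraries, whereas Grik3 lay above Dlg2 in 12 of 24, Dlg2 above Shank1 in 12 and Shank1 above Dlgap2 in 13. The ranks from Grik3 to Dlgap2 therefore did not separate beyond the spread between libraries. At the other end, Grm8 (0.0194), Grm2 (0.0437), Grin2c (0.0671) and Homer3 (0.0834) had medians under 0.1 CPM per kb. Of the 37 genes, 27 averaged at least 40 CPM over the 24 libraries (43.5 to 955 CPM), and the other 10 averaged 1.41 to 30.8 CPM. Of these 10, 9 had no count in at least 1 library: Grin3a in 2 libraries, Grik4 in 3, Grik1 in 4, Grin2d in 5, Homer3 in 8, Grin3b in 9, Grm8 in 10, and Grin2c and Grm2 in 11 each.

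**Figure D1:**
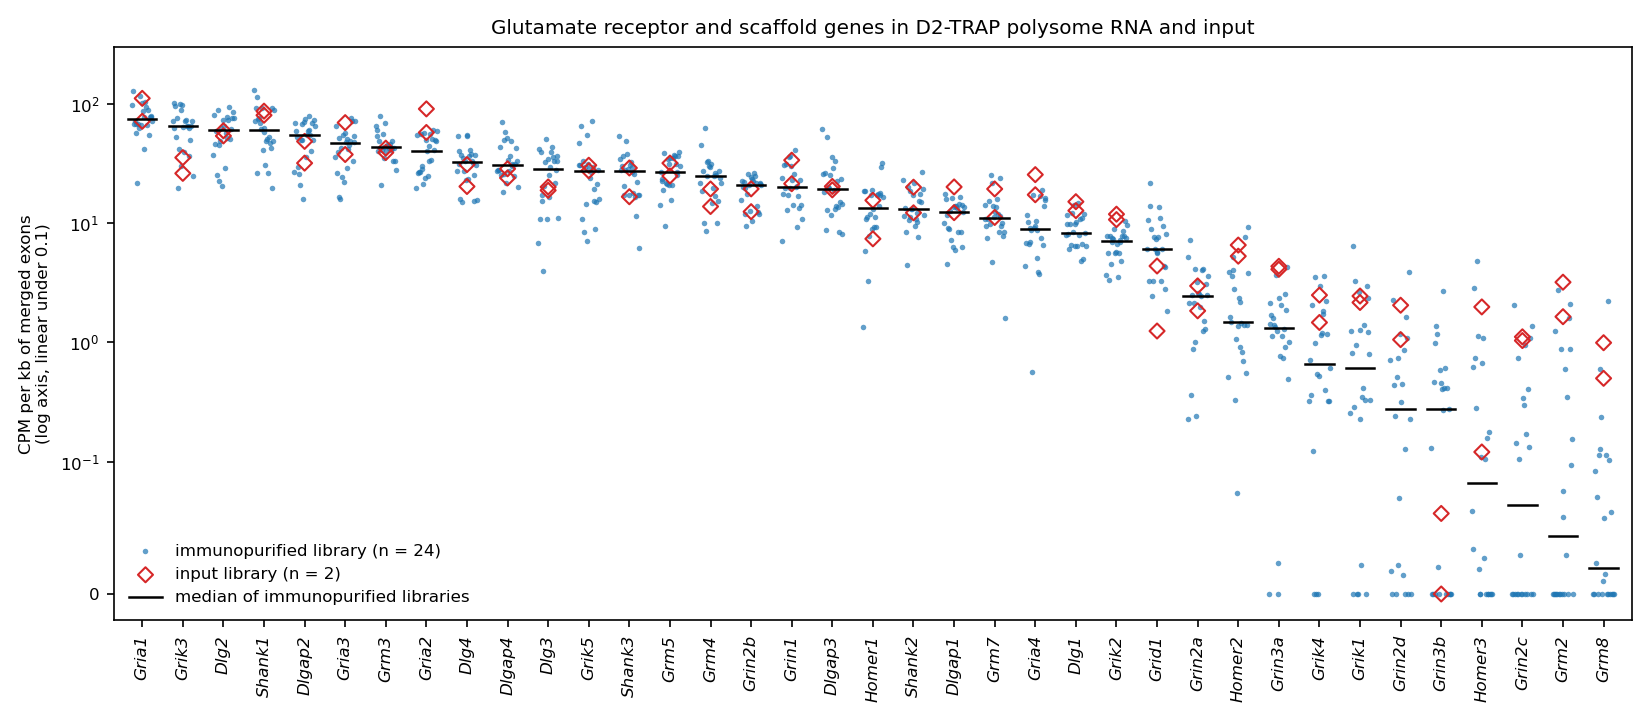
Levels of the 37 genes in CPM per kb of merged exons (log axis), ordered by the median over the 24 immunopurified libraries (dots, with a bar at the median), with the 2 input libraries as open diamonds. Gria1 (75.1), Grik3 (64.9), Dlg2 (60.7), Shank1 (59.9) and Dlgap2 (54.7) lead, and the 6 lowest genes have medians under 0.3 CPM per kb.

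Among the AMPA subunits, Gria1 made up 45.3 ± 8.70% of the family's CPM per kb (SD, n = 24), Gria3 25.5 ± 4.79%, Gria2 23.5 ± 5.17% and Gria4 5.69 ± 2.63%. The inputs averaged 37.9%, 21.8%, 30.7% and 9.63% for the same 4 genes. The rank of Gria1 over Gria2 depends on the length used. Of the merged exons of Gria2, 82.0% are noncoding, against 53.1% of those of Gria1. Per kb of merged exons the log2 ratio of Gria1 to Gria2 had a median of 0.99 and was above 0 in 22 of 24 libraries, whereas per kb of coding sequence, a scale added after the levels were seen, the median was -0.39 and the ratio was above 0 in 5 of 24. On the coding scale the order of all 37 genes began with Dlg2 (307 CPM per kb), Gria2 (225), Grik3 (211), Dlg4 (170), Gria3 (165) and Gria1 (160).

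Of the NMDA receptor genes, the obligatory subunit Grin1 (median 19.9 CPM per kb) and Grin2b (20.9) stood close together per kb of merged exons, with Grin2b above Grin1 in 8 of 24 libraries and shares of the family of 45.8 ± 9.01% (Grin1) and 42.4 ± 9.45% (Grin2b). Per kb of coding sequence Grin2b stood at 117 and Grin1 at 65.7, and Grin2b was above in 23 of 24 libraries, so their order depends on the length used. Grin2a, whose subunit gives faster channel decay than that of Grin2b, made up 5.31 ± 2.996%. The log2 ratio of Grin2b to Grin2a had a median of 3.10 per kb of merged exons and 3.55 per kb of coding sequence, and lay above 0 in 24 of 24 libraries on both scales. Grin3a, whose subunit lowers calcium entry, made up 3.25 ± 2.16%, and Grin2c, Grin2d and Grin3b 0.825%, 1.30% and 1.04%.

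Grik3 carried the kainate family in D2 polysomes. It made up 63.2 ± 8.72% of the family's CPM per kb (46.3 to 82.2%), against 43.5% and 37.8% in the 2 inputs, so that the lowest immunopurified library lay above both. Grik5, a high-affinity subunit that needs a partner of the Grik1 to Grik3 kind, made up 26.2 ± 8.57% (inputs 38.6% on average) and Grik2 7.87 ± 4.38% (inputs 14.6% and 15.5%). Grik1 and Grik4 were near 1% each, at 1.45% and 1.37%. Grid1, a delta receptor that binds cerebellin rather than acting as a usual glutamate-gated channel, had a median of 6.04 CPM per kb.

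Per kb of merged exons the metabotropic genes were led by Grm3, a group II receptor coupled to Gi (41.6 ± 7.16% of the 6 genes' CPM per kb), followed by Grm5, the group I receptor that binds Homer (24.8 ± 6.80%), and by the group III receptors Grm4 (21.9 ± 5.97%) and Grm7 (11.1 ± 4.86%). The other group II and group III genes, Grm2 and Grm8, made up 0.549% and 0.136%. Per kb of coding sequence the medians were 76.1 for Grm5, 53.0 for Grm4 and 50.1 for Grm3, and Grm3 lay above Grm5 in 5 of 24 libraries, so the lead of Grm3 does not hold on that scale. Among scaffolds, Homer1 made up 81.3 ± 16.1% of the Homer sum, Dlg2 (PSD-93) 46.0 ± 8.06% and Dlg4 (PSD-95) 26.2 ± 6.19% of the Dlg sum, Shank1 58.8 ± 11.2% and Shank3 26.6 ± 10.9% of the Shank sum, and Dlgap2 43.2 ± 10.7% and Dlgap4 29.1 ± 6.72% of the Dlgap sum. The scaffold genes Dlgap3, Shank2 and Dlg1 had medians of 19.3, 13.2 and 8.28 CPM per kb of merged exons. Counts per gene do not separate the short, activity-induced Homer1 isoform from the long ones. Homer2 made up 14.7 ± 10.9% of the Homer sum, against an average of 34.3% in the inputs.

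Between libraries, the coefficient of variation of CPM ran from 27.7% (Grin2b) to 285% (Grm8), with a median of 45.6% over the 37 genes, against a median of 85.5% over all genes tested. Gria1 varied by 30.1%, Grm3 by 28.7% and Grik2 by 27.9%. The genes at a few CPM varied most, and at low depth those values come from few reads.

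Immunopurified RNA was compared with input in 8 libraries without withdrawal (5 nonescalating and 3 saline) and 2 inputs (1 of each agent), over 14929 genes. The lowest fold changes among the better measured genes were those of Gria4, Gria2 and Grik2, and the highest those of Grid1 and Grik3. No member passed edgeR's quasi-likelihood test at an adjusted p under 0.05, beside 0.255% of all genes tested (38 genes, all higher in immunopurified RNA). At an unadjusted p under 0.05 there were 2 members (5.41%), both lower in immunopurified RNA, against 8.27% of all genes, and the median log2 fold change was -0.24 over the members, against 0.07 over all genes. Without nonescalating replicate 4 the members' median was -0.15. The count and its direction also depended on that library. Without it, unadjusted p-values by edgeR's quasi-likelihood test were 0.0120 (Gria4), 0.0197 (Gria2) and 0.0134 (Grm2), all lower in immunopurified RNA. Those of Grik3 (0.0109) and Grid1 (0.0329), both higher, were also under 0.05. The share of all genes in that fit is not given. In bulk RNA, fewer cells of a type and less RNA per cell cannot be told apart. With 2 inputs, the 95% interval lay within 1 log2 unit of 0 on both sides for 1 of the 27 better measured genes.

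Gria4 had 64.9, 42.4, 57.7, 43.8 and 55.7 CPM in the nonescalating libraries and 27.4, 42.9 and 73.9 CPM in the saline libraries, against 161 CPM in the nonescalating input and 109 CPM in the saline input. All 8 immunopurified libraries lay below both inputs. Its log2 fold change was -1.40 (SE 0.47, 95% interval -2.38 to -0.42), with an adjusted p of 0.271 by edgeR's quasi-likelihood test. Gria2 had 418, 417, 866, 439 and 469 CPM in the nonescalating libraries and 306, 848 and 411 CPM in the saline libraries, against 895 and 1411 CPM in the nonescalating and saline inputs. It too lay below both inputs in 8 of 8 libraries, although nonescalating replicate 3 and saline replicate 3 came close to the lower input. The log2 fold change of Gria2 was -1.10 (SE 0.44, 95% interval -2.02 to -0.18, adjusted p 0.441 by edgeR's quasi-likelihood test). Without nonescalating replicate 4 the 2 values were -1.36 and -1.08.

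Grik2 had 44.1 to 102 CPM in the nonescalating libraries and 49.1 to 103 CPM in the saline libraries, against 157 and 142 CPM in the nonescalating and saline inputs, a log2 fold change of -0.94 (SE 0.46, edgeR adjusted p 0.639), and -0.98 without nonescalating replicate 4. Its paralog Grik3 (chr4:125490700-125714173, plus strand, GRCm38) lay above both inputs in 7 of 8 libraries, with 856, 472, 682, 176 and 374 CPM in the nonescalating libraries and 647, 921 and 561 CPM in the saline libraries, against 318 and 234 CPM in the nonescalating and saline inputs. The exception was nonescalating replicate 4, at 176 CPM. The log2 fold change of Grik3 was 1.09 (SE 0.54, edgeR adjusted p 0.64), and without that library 1.24 (adjusted p 0.324). Over all 24 immunopurified libraries, Grik2 lay below both inputs in 24 and Grik3 above both in 21. Grid1 ranged from 14.6 to 130.2 CPM in the nonescalating libraries and from 19.6 to 63.8 CPM in the saline libraries, against 26.04 and 7.41 CPM in the nonescalating and saline inputs, a log2 fold change of 1.72 (SE 0.87, edgeR adjusted p 0.656), and 1.89 without nonescalating replicate 4.

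Gria2, Gria4, Grin3a, Grik2, Homer2 and Dlg1 were the members that lay below both inputs in all 8 libraries, 16.2% of the 37, beside 4.27% of all genes tested. None lay above both inputs in all 8, beside 3.26% of all genes. Over the 24 immunopurified libraries, Gria4 and Grin3a lay below both inputs in 23, and Gria2, Homer2 and Dlg1 in 22. Of the tagged cells' markers, 7 of 7 for D2 medium spiny neurons had fold changes above 0 (summed 1159 to 9428 CPM in the 8 libraries, against 1227 to 1683 CPM in the inputs), and 6 of 8 shared by both types of medium spiny neuron (1438 to 8970 CPM, against 3707 to 4257 CPM). Cortical glutamatergic neuron markers summed to 0 to 100.2 CPM, against 60.6 to 307 CPM in the inputs, with 5 of 5 below 0 and a median log2 fold change of -2.20. GABA interneuron markers summed to 67.1 to 323 CPM in the 8 libraries, against 589 to 695 CPM in the inputs, and all 6 tested of 7 had log2 fold changes below 0. Astrocyte markers summed to 70.5 to 460 CPM, against 314 to 602 CPM in the inputs (7 of 8 below 0), and D1 medium spiny neuron markers to 71.6 to 168 CPM, against 419 to 456 CPM (7 of 7 below 0). Oligodendrocyte markers summed to 376 to 3461 CPM, against 1664 to 4433 CPM in the inputs (7 of 8 below 0). Cholinergic interneuron markers summed to 9.81 to 46.4 CPM, against 32.5 to 128 CPM, with Gbx2 at 0 in all. All 5 tested of these 6 were below 0, with a median log2 fold change of -1.78. Oligodendrocyte precursor markers (3 of 4 below 0) and microglia markers (3 of 7 below 0) had medians of -0.72 and 0.058. Endothelial and mural markers summed to 1353 to 8051 CPM, against 180 to 335 CPM in the inputs, with 10 of 10 above 0. Their median log2 fold change was 4.11, and 3 of them passed edgeR's quasi-likelihood test at an adjusted p under 0.05. D2 medium spiny neuron markers had a median of 1.77, and 0 passed. Nonescalating replicate 4 set the low end for D2 and shared medium spiny neuron markers and the high end for astrocytes and oligodendrocytes, and without it these ends were 3949, 3546, 229 and 3084 CPM. The part of other cells' RNA in the values of the receptor genes was not tested.

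**Figure D2:**
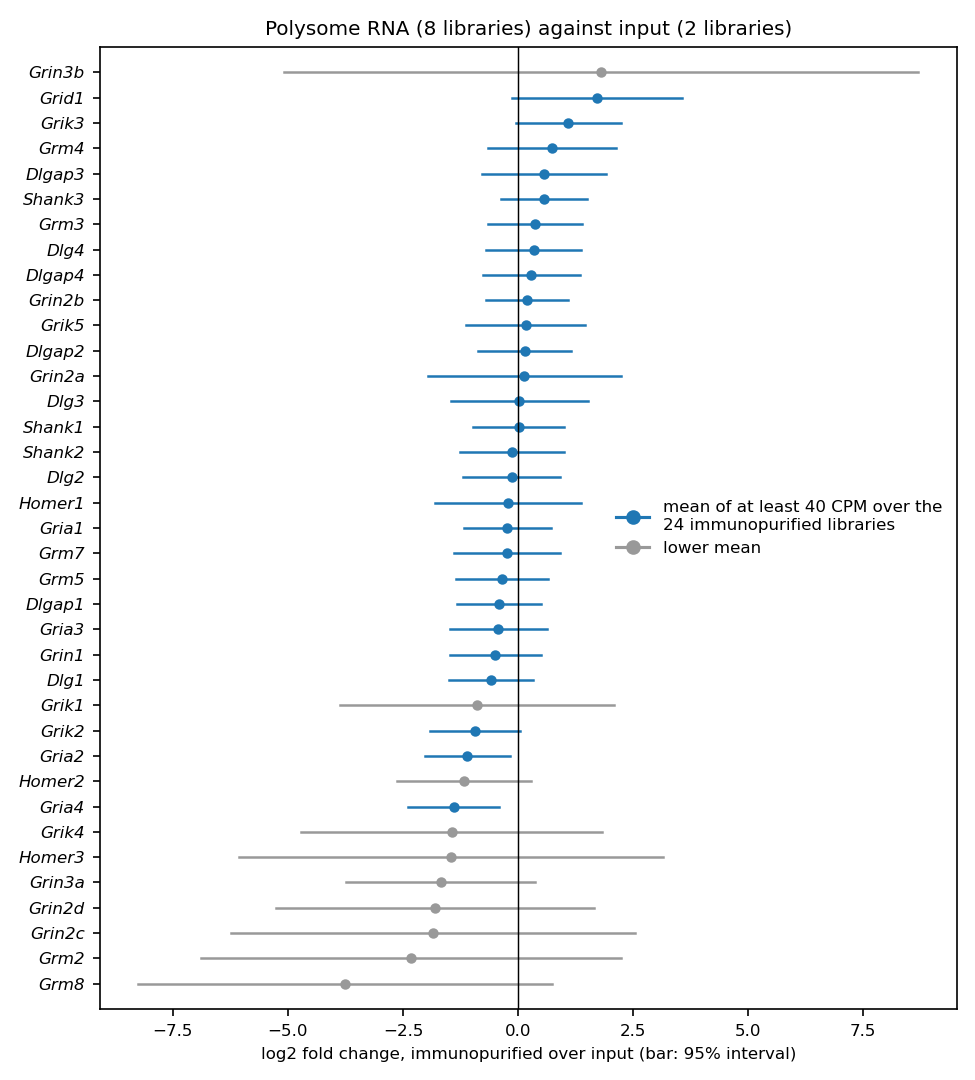
Log2 fold change of each of the 37 genes, immunopurified RNA (8 libraries) over input (2 libraries), with 95% intervals from edgeR's quasi-likelihood fit, in blue for the 27 genes with a mean of at least 40 CPM over the 24 immunopurified libraries and in grey for the other 10. Gria4 (-1.40) and Gria2 (-1.10) have intervals wholly below 0, and the intervals of Grik3 (1.09) and Grid1 (1.72) reach just below 0.

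Nonescalating cocaine was set against saline without withdrawal to ask what intake without escalation leaves in D2 polysomes. Gria1 had the smallest p among the members, and its value was lower in nonescalating cocaine. No gene passed edgeR's quasi-likelihood test (0% of 15854 genes, with 1068 or 6.74% at an unadjusted p under 0.05, and 34 genes by DESeq2). The members gave 1 at an unadjusted p under 0.05, 18 values above and 19 below 0, and a median log2 fold change of -0.03 (0.017 without nonescalating replicate 4), against 0.01 over all genes. Gria1 had 434, 345, 413, 132 and 409.8 CPM in the nonescalating libraries, against 597, 778 and 406 CPM in the saline libraries. The groups overlapped, because saline replicate 4, at 406 CPM, lay below 3 of the nonescalating libraries. The log2 fold change was -0.81 (SE 0.34, 95% interval -1.51 to -0.12, unadjusted p 0.0237, adjusted p 0.719 by edgeR's quasi-likelihood test), and without nonescalating replicate 4 it was -0.61 (unadjusted p 0.0599). Without that library Grm2 had the smallest p among the members, 0.0238 unadjusted by edgeR's quasi-likelihood test. The log2 fold change of Grm2 was then -6.45 (SE 2.70), against 0.46 with it. Of the nonescalating libraries, only replicate 4 held any count of Grm2. Shank3, whose protein anchors glutamate receptors through Dlgap, had 279, 333, 189, 157 and 254 CPM in the nonescalating libraries, against 492, 314 and 255 CPM in the saline libraries, a log2 fold change of -0.58 (SE 0.36, edgeR adjusted p 0.809), and -0.46 without nonescalating replicate 4.

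Dlgap1, the adaptor between Dlg4 and Shank, had 210.0, 81.2, 164, 159.6 and 226 CPM in nonescalating cocaine, against 179, 316 and 283 CPM in saline, a log2 fold change of -0.65 (SE 0.39, edgeR adjusted p 0.791), and -0.64 without nonescalating replicate 4. The next smallest p-values belonged to Grin3b (3.97, SE 2.15) and Homer3 (3.06, SE 1.95), which had at most 4.50 and 16.5 CPM in any of these libraries and gave 3.69 and 2.40 without nonescalating replicate 4. Gria2 did not share the value of Gria1, with means of 522 ± 193 CPM in nonescalating cocaine and 521 ± 287 CPM in saline (SD, n = 5 and n = 3). No member separated the groups, beside 1.26% of all genes lying wholly higher and 1.12% wholly lower in nonescalating cocaine. For 4 of the 27 better measured genes the 95% interval lay within 1 log2 unit of 0 on both sides, so for most a difference of 2-fold lay within the interval. Oligodendrocyte markers (8 of 8, summed 376 to 3461 CPM in nonescalating cocaine and 429 to 3084 CPM in saline) and astrocyte markers (8 of 8, 102 to 460 CPM and 70.5 to 224 CPM) had fold changes above 0, and 7 of 8 shared medium spiny neuron markers had fold changes below 0 (1438 to 6998 CPM and 3717 to 8970 CPM). Nonescalating replicate 4 held the 3461, 460 and 1438 CPM, and the next libraries of its group 2453, 229 and 3546 CPM. The markers' part in the members' values was not tested.

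Escalating cocaine (2 libraries) was set against the same 3 saline libraries and against the 5 nonescalating libraries, so these comparisons share libraries with the one before. Grin1 and Dlgap4 had higher values in escalating cocaine, and Grik1 had no count at all. No gene passed edgeR's quasi-likelihood test against saline (0%, with 1283 genes or 8.09% at an unadjusted p under 0.05) or against nonescalating cocaine (0%, with 1388 genes or 8.75%), while DESeq2 called 143 and 225 genes. Members with an unadjusted p under 0.05 numbered 3 in each comparison. Their median log2 fold change was 0.11 against saline (all genes -0.08), with 21 above and 16 below 0. Against nonescalating cocaine it was 0.23 (all genes -0.12), with 24 above and 13 below, and 0.13 without nonescalating replicate 4.

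Grin1 had 346 and 357 CPM in the escalating libraries, against 298, 191, 302, 125 and 168 CPM in the nonescalating and 68.4, 231 and 169 CPM in the saline libraries. Both escalating libraries lay above all 8 other libraries without withdrawal, but not above every withdrawal library. The log2 fold change against saline was 1.15 (SE 0.49, unadjusted p 0.0248, adjusted p 0.614 by edgeR's quasi-likelihood test). Dlgap4 had 419 and 489.7 CPM in escalating cocaine, against 229, 235 and 238 CPM in saline, a log2 fold change of 0.94 (SE 0.44, edgeR adjusted p 0.614). Against nonescalating cocaine Dlgap4 overlapped, because nonescalating replicate 3 had 594 CPM. Dlg3 (SAP102) had 191 and 299 CPM in escalating cocaine, against 230.0, 88.9, 101, 23.2 and 119 CPM in nonescalating cocaine and 39.6, 246 and 63.7 CPM in saline, with log2 fold changes of 1.13 (SE 0.59; 0.87 without nonescalating replicate 4) and 1.04 (SE 0.67) whose groups overlapped.

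Grik1 (chr16:87895900-88290265, minus strand, GRCm38) had 0 counts in both escalating libraries, which held 17.4 and 7.58 M counts in all (median of the 24 libraries 3.25 M), against 43.4, 0, 1.93, 22.1 and 6.35 CPM in the nonescalating and 1.71, 8.38 and 5.52 CPM in the saline libraries. Behind these stand 370, 0, 6, 59 and 13 counts in nonescalating cocaine and 8, 71 and 18 counts in saline. The escalating libraries lay below all saline libraries, while nonescalating replicate 2 and 2 withdrawal libraries (saline withdrawal replicate 3 of set 2 at 0 counts, nonescalating withdrawal replicate 1 of set 1 at 1 count) were as low or nearly so. Taking 3 counts in each escalating library as the limit of detection (0.320 CPM on average), Grik1 was at least 46.1-fold lower in escalating than in nonescalating cocaine (mean 14.8 CPM) and at least 16.3-fold lower than in saline (mean 5.20 CPM). The limits rest on single libraries. Without nonescalating replicate 1 (43.4 CPM) the first was 23.7-fold (mean 7.60 CPM), and without escalating replicate 2, the shallower of the pair, the limits were 74.4-fold and 26.2-fold. Without escalating replicate 1 they were 33.4-fold and 11.8-fold, and without saline replicate 3 the second was 11.3-fold. Without nonescalating replicate 4 the first was 40.4-fold. By edgeR's quasi-likelihood test the adjusted p was 0.558 against nonescalating cocaine and 0.614 against saline. DESeq2 gave adjusted p-values of 0.00129 and 0.0292, so the call on Grik1 depends on the tool.

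Homer2 (chr7:81600481-81707527, minus strand, GRCm38) had 4.16 and 13.4 CPM in escalating cocaine, against 18.8, 45.7, 65.1, 50.9 and 35.7 CPM in nonescalating cocaine, and the groups did not overlap. Its log2 fold change was -2.29 (SE 1.09, edgeR adjusted p 0.558), and -2.22 without nonescalating replicate 4. Against saline the log2 fold change of Homer2 was -1.56 (SE 1.09, edgeR adjusted p 0.741), and the groups overlapped. The lowest saline withdrawal library lay below both escalating libraries. Homer3, at 0.0661 and 0 CPM in escalating cocaine, lay below all nonescalating (0.967 to 16.5 CPM) and all saline libraries (0.118 to 2.15 CPM), with fitted log2 fold changes of -6.81 (SE 2.81) and -3.75 (SE 2.39) that rest on 1 count in the escalating group. Grin3b against nonescalating cocaine (-5.45, SE 2.69) likewise rests on 1 count. Without nonescalating replicate 4, Homer3 and Grin3b gave -6.17 and -5.17 in that comparison. Grm2 gave 6.55 (SE 2.78, unadjusted p 0.0254 by edgeR's quasi-likelihood test) without that library, against -0.35 with it. Shank3, at 445 and 351 CPM in escalating cocaine, lay above all nonescalating libraries, whose highest had 333 CPM. Against saline, Grin1, Dlgap4 and Grm8 lay wholly higher (7.66% of all genes did) and Grik1 and Homer3 wholly lower (6.55%). Against nonescalating cocaine, Grin1 and Shank3 lay wholly higher (5% of all genes) and Homer2 and Homer3 wholly lower (4.07%), and the same 4 members did so without nonescalating replicate 4.

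Against saline, 7 of 7 D2 medium spiny neuron markers (summed 7257 to 7425 CPM in escalating cocaine and 3949 to 9428 CPM in saline) and 6 of 8 shared medium spiny neuron markers (6582 to 8091 CPM and 3717 to 8970 CPM) had fold changes above 0 in escalating cocaine. Below 0 were 6 of 7 D1 medium spiny neuron markers (109 to 130.1 CPM and 117 to 158 CPM), 7 of 10 endothelial and mural markers (1747 to 6887 CPM and 1395 to 8051 CPM) and 5 of 8 astrocyte markers (95.1 to 159 CPM and 70.5 to 224 CPM). Against nonescalating cocaine, 8 of 8 oligodendrocyte and 8 of 8 astrocyte markers had fold changes below 0 and 8 of 8 shared medium spiny neuron markers above 0. Oligodendrocyte markers summed to 893 to 1240 CPM in escalating and 376 to 3461 CPM in nonescalating cocaine, and shared medium spiny neuron markers to 6582 to 8091 CPM and 1438 to 6998 CPM (3546 to 6998 CPM without nonescalating replicate 4). Their part in the Grin1, Dlgap4, Homer2 and Grik1 values was not tested.

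**Figure D3:**
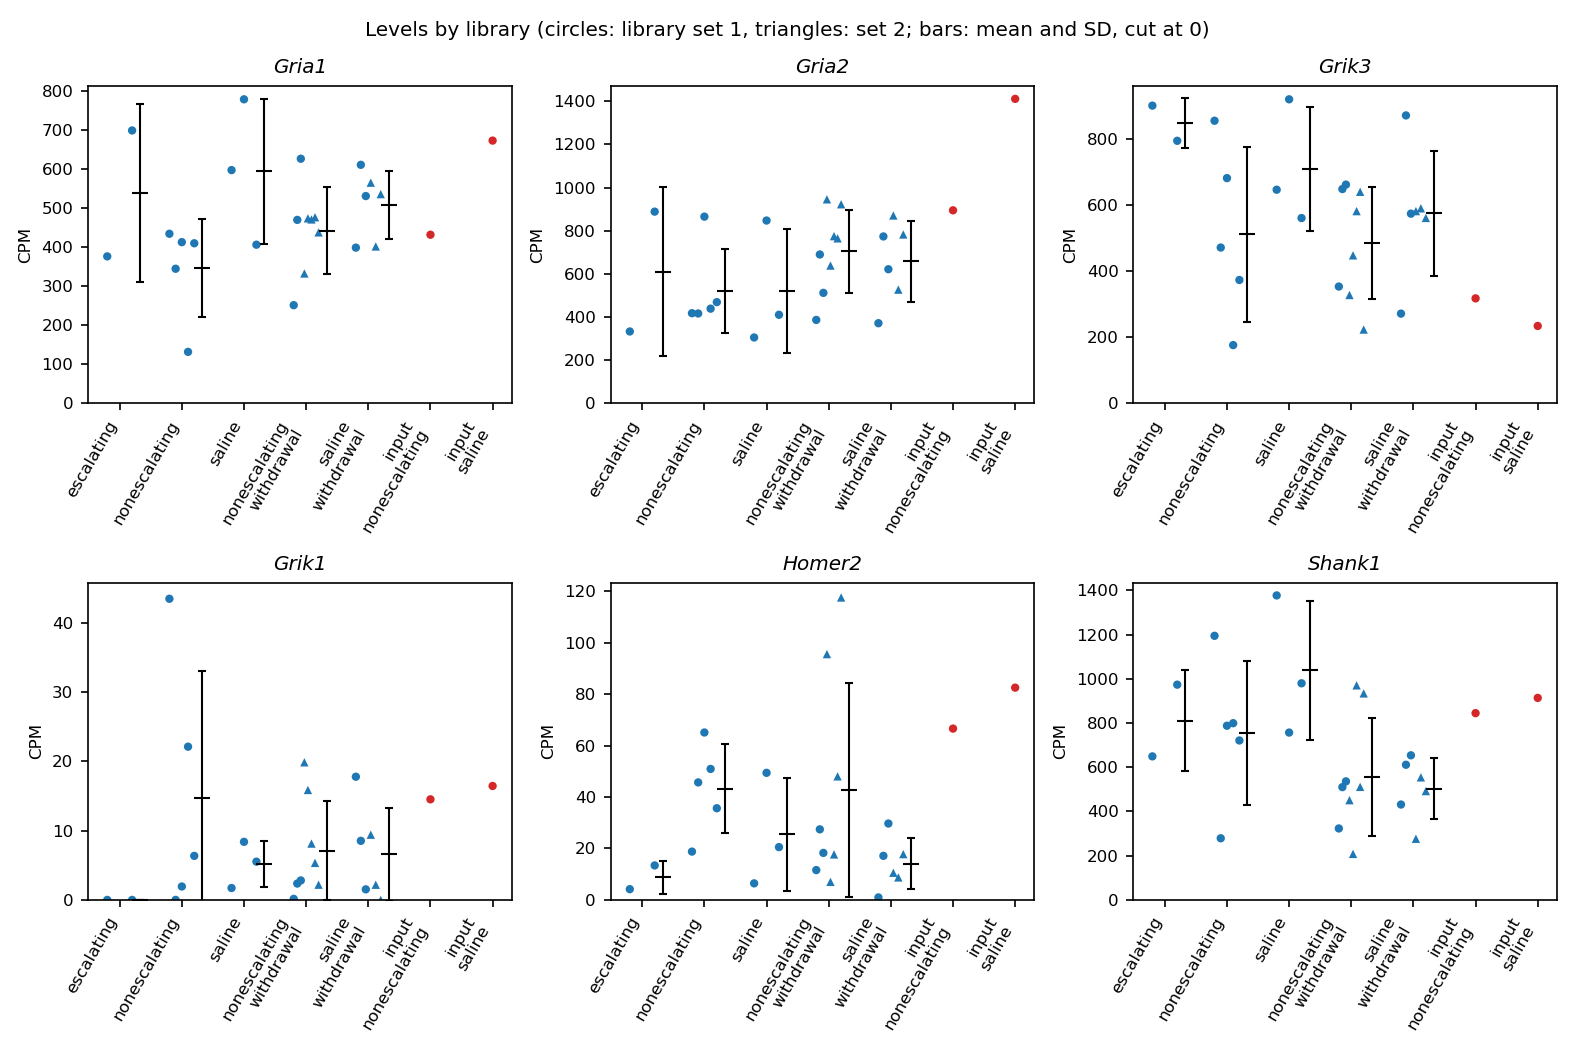
CPM of 6 genes in every library by group (circles for library set 1, triangles for set 2), with the mean and SD as bars, cut at 0, and the 2 inputs as single points. Grik1 is at 0 in both escalating libraries, Gria2 lies below both inputs in all but 2 immunopurified libraries, and Shank1 is higher in saline (757 to 1377 CPM) than in saline withdrawal (276 to 654 CPM).

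After withdrawal, nonescalating cocaine (8 libraries) was set against saline (6 libraries) with library set as a term. It had the smallest standard errors of the comparisons (median 0.30 over the 27 better measured genes). The 37 genes ran from -3.16 (Grm8) to 1.55 (Grin2c), both low-count genes. No gene passed edgeR's quasi-likelihood test (0%, with 553 genes or 3.49% at an unadjusted p under 0.05, and 2 genes by DESeq2), and no member had an unadjusted p under 0.05. The members' median log2 fold change was -0.13, against 0.05 over all genes, with 15 above and 22 below 0. The 27 better measured genes ran from -0.49 (Grm7) to 0.21 (Grik5), and for 19 of them the 95% interval lay within 1 log2 unit of 0 on both sides. No member separated the groups, beside 0.0189% of all genes wholly higher and 0.0126% wholly lower.

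Gria1 had 251, 470.2 and 626 CPM (lowest, median and highest of 8) in nonescalating withdrawal, against 399, 533 and 611 CPM (of 6) in saline withdrawal, and Gria2 had 387, 728 and 946 CPM, against 372, 698 and 871 CPM. For both genes the groups overlapped. Homer2 had the smallest p among the members, with 7.01, 22.9 and 118 CPM (lowest, median and highest) in nonescalating withdrawal, against 0.960, 13.8 and 29.7 CPM in saline withdrawal. The 3 highest values of Homer2 after withdrawal, 118, 95.6 and 48.0 CPM, were all in nonescalating libraries of set 2. Its log2 fold change was 1.29 (SE 0.69, adjusted p 1 by edgeR's quasi-likelihood test), with 0.24 in set 1 alone and 2.23 in set 2 alone.

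Dlg4, which encodes PSD-95, had 204, 373 and 547 CPM in nonescalating withdrawal, against 306, 471 and 724 CPM in saline withdrawal, a log2 fold change of -0.44 (SE 0.28, edgeR adjusted p 1) that was -0.37 in set 1 alone. Grm4 had 59.9, 124 and 162 CPM, against 101, 167 and 189 CPM in saline withdrawal (-0.41, SE 0.35), with -0.59 in set 1 and -0.19 in set 2. Grm7 (-0.49, SE 0.39) and Grm8 (-3.16, SE 2.01) had the opposite sign in set 1 alone, at 0.16 and 0.81, and Grm8 was too low to be fitted in set 2 alone. Astrocyte markers were above 0 for 7 of 8 genes (46.6 to 178 CPM in nonescalating withdrawal, 38.3 to 186 CPM in saline withdrawal), and their part was not tested.

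**Figure D4:**
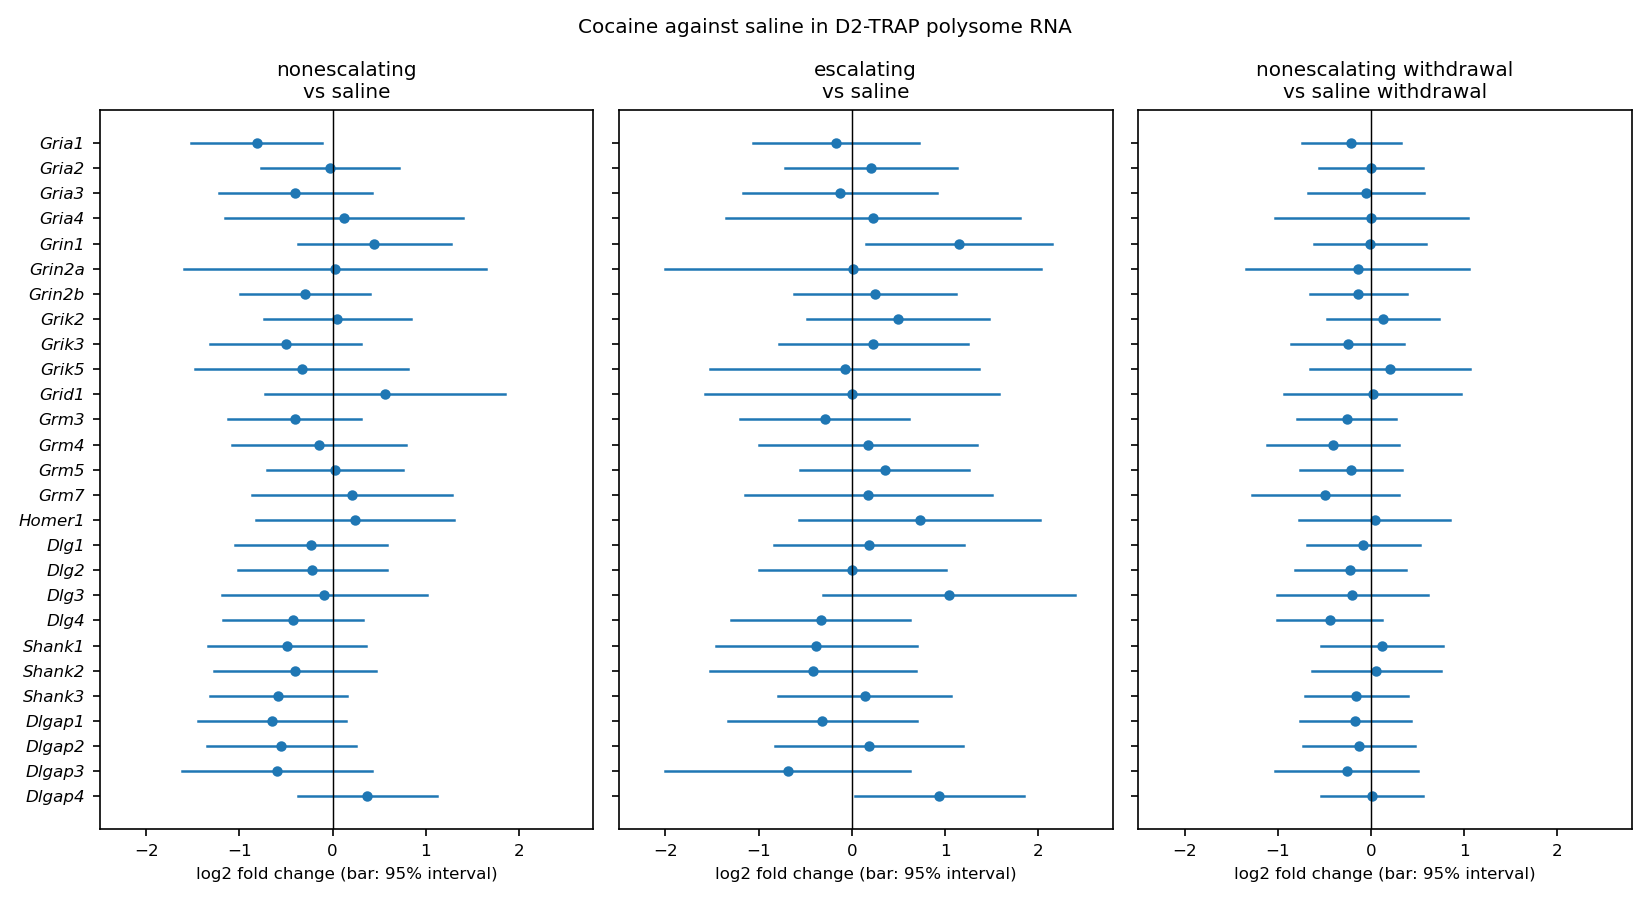
Log2 fold changes of cocaine over saline with 95% intervals for the 27 genes with a mean of at least 40 CPM, in 3 comparisons (nonescalating over saline, escalating over saline, and nonescalating withdrawal over saline withdrawal). In the first, Gria1 (-0.81) is the gene whose interval lies wholly below 0, in the second Grin1 (1.15) and Dlgap4 (0.94) have intervals above 0, and after withdrawal all values lie between -0.49 and 0.21.

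Withdrawal itself was examined within saline and within nonescalating cocaine. Shank1 had the smallest p among the members in saline, with lower values after withdrawal. No gene passed edgeR's quasi-likelihood test for saline withdrawal against saline (0%, with 1052 genes or 6.64% at an unadjusted p under 0.05, and 30 genes by DESeq2), and 1 member had an unadjusted p under 0.05. The members' median log2 fold change was -0.07 (all genes -0.05), with 17 above and 20 below 0, but it was 0.35 without saline replicate 3. Shank1 encodes a scaffold deep in the postsynaptic density (chr7:44310253-44360572, plus strand, GRCm38) and overlaps 1700008O03Rik, whose reads cannot be told apart. It had 431, 611 and 654 CPM in set 1 and 276, 554 and 492 CPM in set 2 of saline withdrawal, against 1377, 757 and 979.5 CPM in saline. All 6 withdrawal libraries lay below all 3 saline libraries, as 1.1% of all genes did, and no member lay wholly higher (1.21% of all genes). The log2 fold change was -1.13 (SE 0.42, 95% interval -1.99 to -0.27, unadjusted p 0.0115, adjusted p 0.742 by edgeR's quasi-likelihood test), and in set 1 alone it was -0.85 (unadjusted p 0.0819). Microglia markers (6 of 6 tested), endothelial and mural markers (10 of 10) and astrocyte markers (7 of 8) had fold changes below 0 in the same contrast. Microglia markers summed to 4.07 to 37.9 CPM in saline withdrawal and 16.9 to 432 CPM in saline. Endothelial and mural markers summed to 298 to 5935 CPM and 1395 to 8051 CPM, and astrocyte markers to 38.3 to 186 CPM and 70.5 to 224 CPM. The 298 and 38.3 CPM were in set 2, which holds no saline library without withdrawal, and the lowest sums in set 1 were 1463 and 75.2 CPM. Saline replicate 1 held the 432 CPM of microglia markers, and the next saline library 79.7 CPM. The markers' part in the Shank1 value was not tested.

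The other members with the smallest p in saline withdrawal against saline were Grin3b (4.54, SE 2.34), Grin1 (0.62, SE 0.42), Homer2 (-1.15, SE 0.81) and Shank3 (-0.45, SE 0.38), with adjusted p-values of 0.758 to 0.906 by edgeR's quasi-likelihood test. In nonescalating cocaine, withdrawal against none gave no gene by edgeR's quasi-likelihood test (0%, with 440 genes or 2.78% at an unadjusted p under 0.05, and 0 genes by DESeq2), no member with an unadjusted p under 0.05, and a members' median of -0.04 (all genes 0.01; -0.09 without nonescalating replicate 4). Shank1 gave -0.53 (SE 0.40), with 208, 510.5 and 970.1 CPM (lowest, median and highest of 8) in nonescalating withdrawal, against 1194, 279, 788, 799 and 721 CPM in nonescalating cocaine, and the groups overlapped. Without nonescalating replicate 4 it gave -0.50. Dlgap2 gave 0.45 (SE 0.36; 0.31 without that library), and the low-count genes Grm8 (-2.81, SE 1.76), Homer3 (-2.43, SE 1.63) and Grik1 (-1.80, SE 1.60) completed the 5 smallest p-values, all with an edgeR adjusted p of 1. These 3 gave -2.90, -1.78 and -1.60 without it. Astrocyte markers (8 of 8, summed 46.6 to 178 CPM in nonescalating withdrawal and 102 to 460 CPM in nonescalating cocaine) and microglia markers (6 of 6 tested, 1.91 to 32.7 CPM and 11.6 to 92.5 CPM) had fold changes below 0. Above 0 were 7 of 8 shared medium spiny neuron markers (4057 to 8271 CPM and 1438 to 6998 CPM). The 46.6 and 1.91 CPM were in set 2, and the lowest sums in set 1 of withdrawal were 62.0 and 12.6 CPM. Nonescalating replicate 4 held the 460, 92.5 and 1438 CPM, and without it these ends were 229, 39.7 and 3546 CPM. The markers' part in the Shank1 value was not tested. No member separated these groups, beside 0.0631% of all genes wholly higher and 0.0568% wholly lower in withdrawal.

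Whether the cocaine effect differed after withdrawal was tested as an interaction. No gene passed edgeR's quasi-likelihood test (0%, with 776 genes or 4.89% at an unadjusted p under 0.05, and 11 genes by DESeq2) and no member had an unadjusted p under 0.05. The members' median was 0.03, against 0.07 over all genes, but its sign turned without saline replicate 3 (-0.37) or nonescalating replicate 4 (-0.038). For Gria1 the difference between the cocaine effects was 0.60 (SE 0.43, edgeR adjusted p 1; 0.40 without nonescalating replicate 4), so its lower value in nonescalating cocaine without withdrawal was not shown to differ from the value after withdrawal. Grin3b (-4.78, SE 2.52), Grm8 (-5.52, SE 3.11), Grin2c (3.44, SE 2.63) and Homer3 (-2.75, SE 2.36) had the other smallest p-values, and all 4 rest on few counts. Without nonescalating replicate 4 they gave -4.50, -5.61, 5.68 and -2.11. Grm2 gave 7.21 (SE 3.05, unadjusted p 0.0250 by edgeR's quasi-likelihood test) without that library, against 0.29 with it.

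The ratios of Gria1 to Gria2 and of Grin2b to Grin2a, per kb of merged exons, were compared between groups as markers of AMPA and NMDA receptor composition in 12 exact two-sided permutation tests. The log2 ratio of Gria1 to Gria2 was 1.42, 1.09, 0.29, -0.37 and 1.17 in nonescalating cocaine, against 2.33, 1.24 and 1.35 in saline. Nonescalating replicate 1 lay above 2 of the saline libraries, so the groups overlapped, and replicate 4 was lowest. The means were 0.72 ± 0.74 and 1.64 ± 0.60 (SD, n = 5 and n = 3), a difference of -0.92 with an exact permutation p of 0.143 (adjusted 0.8; smallest possible 0.0179), and -0.65 without nonescalating replicate 4. In escalating cocaine the ratio was 1.54 and 1.02, which differed by -0.36 from saline and by 0.56 from nonescalating cocaine (exact permutation p 0.6 and 0.429, where the smallest possible are 0.1 and 0.0476), and by 0.28 from nonescalating cocaine without its replicate 4.

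After withdrawal the log2 ratio of Gria1 to Gria2 was 0.74, 0.81 and 1.65 in set 1 and -0.14, 0.93, 0.64, 0.68 and 0.29 in set 2 of nonescalating cocaine, against 1.46, 1.02 and 1.13 in set 1 and 0.74, 0.97 and 0.82 in set 2 of saline. In 6 of the 8 nonescalating withdrawal libraries the ratio lay below all saline withdrawal libraries of the same set, while replicate 4 of set 1, at 1.65, lay above them. The means were 0.70 ± 0.52 and 1.02 ± 0.26 (SD, n = 8 and n = 6), a difference of -0.32 with an exact permutation p of 0.122 (adjusted 0.8). When each of the 14 libraries was left out in turn, the difference ran from -0.46 to -0.20 and the unadjusted exact permutation p from 0.00893 to 0.286. The p was under 0.05 in 1 of these 14, without replicate 4 of set 1, the library that went against the others, so that value supports nothing. Saline withdrawal differed from saline by -0.61 (exact permutation p 0.2, smallest possible 0.05). Nonescalating withdrawal differed from nonescalating cocaine by -0.02 (p 0.964, exact permutation test; -0.29 without nonescalating replicate 4). In both, the withdrawal mean runs over sets 1 and 2, while all libraries without withdrawal are of set 1. These differences of means therefore mix withdrawal with library set, and the 2 cannot be told apart in them.

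The log2 ratio of Grin2b to Grin2a averaged 3.51 ± 1.64 in escalating cocaine, 3.22 ± 1.23 in nonescalating cocaine and 3.82 ± 2.05 in saline (SD, n = 2, 5 and 3), and 2.96 ± 0.48 in nonescalating withdrawal and 3.39 ± 1.38 in saline withdrawal (SD, n = 8 and n = 6). None of its 6 differences, which ran from -0.60 to 0.28, had an exact permutation p under 0.471. Grin2b therefore stood above Grin2a in every group by more than any difference between groups, but the sign of those differences turned with single libraries. Here too, the differences of withdrawal from no withdrawal mix library sets.

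**Figure D5:**
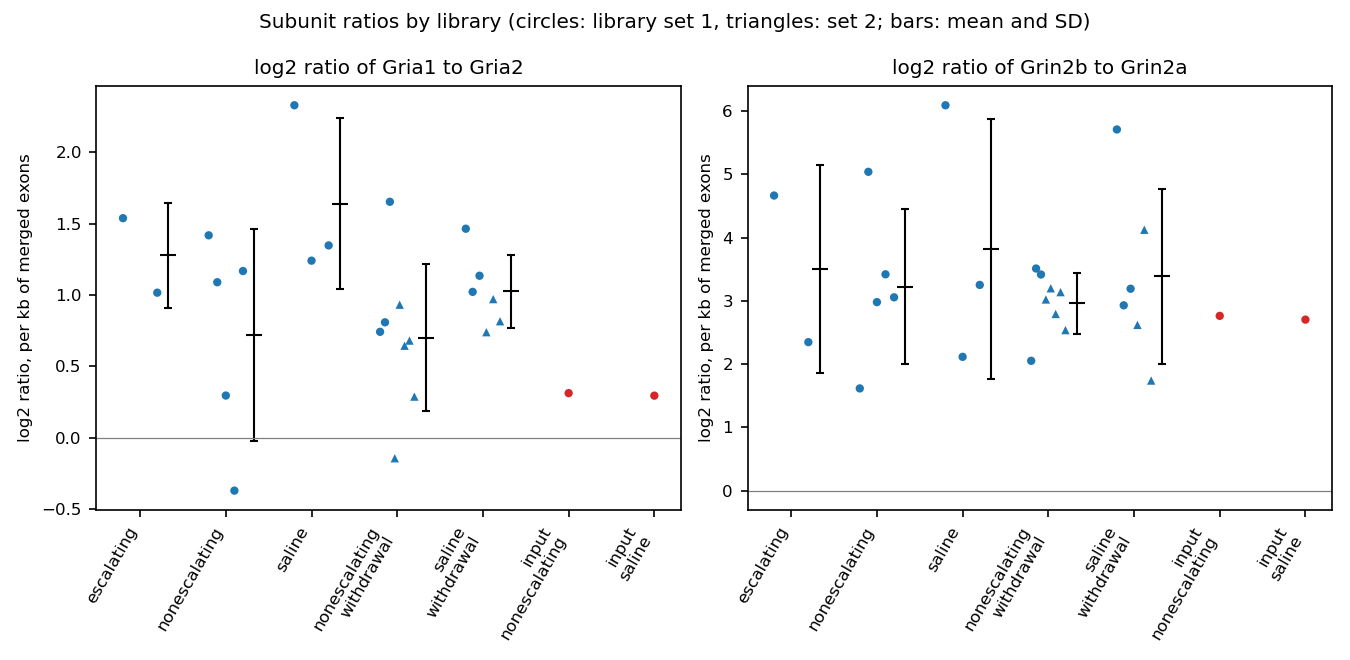
Log2 ratio of Gria1 to Gria2 and of Grin2b to Grin2a per kb of merged exons in every library by group (circles for library set 1, triangles for set 2), with the mean and SD as bars and the inputs as single points. The Gria1 to Gria2 ratio averages 0.72 in nonescalating cocaine and 1.64 in saline with overlap between the groups, and lies at 0.31 in the nonescalating and 0.29 in the saline input.

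Lists of other glutamate synapse genes, 3 in number, were read in the same fits, which include nonescalating replicate 4. None of the 14 tested genes for AMPA and kainate receptor auxiliary subunits (Shisa8 was too low to be tested), of the 20 for postsynaptic signalling and trafficking and of the 11 for glutamate transport and the glutamine cycle passed edgeR's quasi-likelihood test in any of the 8 comparisons. Camk2a, Neto1 and Slc17a7 are named for their levels, after these were seen. Camk2a, the kinase that phosphorylates AMPA receptors in plasticity, had a median of 3013 CPM in immunopurified RNA (1379 to 5351 CPM), against 2273 and 2859 CPM in the nonescalating and saline inputs, and Neto1, a kainate and NMDA receptor auxiliary subunit, a median of 622 CPM, against 423 and 546 CPM in the same inputs. In immunopurified RNA against input, the transport list had a median log2 fold change of -0.72 with 2 above and 9 below 0, against 0.07 over all genes. Among its members, Slc38a3 had a log2 fold change of 2.06 (SE 0.99, edgeR adjusted p 0.618), the astrocyte glutamate transporter Slc1a3 one of -1.19 (SE 0.60) and Slc38a1 one of -0.67 (SE 0.42). Slc17a7, the vesicular transporter of cortical glutamate neurons, had a median of 10.8 CPM in immunopurified RNA, against 27.7 and 190.0 CPM in the nonescalating and saline inputs. The spine protein spinophilin, encoded by Ppp1r9b, was the signalling gene with the smallest p (1.23, SE 0.45, edgeR adjusted p 0.374). The auxiliary subunits had a median of -0.06 (5 above and 9 below 0) and the signalling genes one of 0.22 (13 above and 7 below 0).

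Against saline, the signalling list had a median of 0.23 in escalating cocaine (14 above and 6 below 0; all genes -0.08) and -0.16 in nonescalating cocaine (3 above and 17 below 0; all genes 0.01), from comparisons that share the saline libraries. In escalating against nonescalating cocaine it was 0.46 (16 above and 4 below 0; all genes -0.12), with Baiap2 (0.96, SE 0.45) and Cnksr2 (0.97, SE 0.46), both scaffold partners of Dlg or Shank proteins, at an edgeR adjusted p of 0.558. Shared medium spiny neuron markers had medians of 0.31, -0.31 and 0.56 in these 3 comparisons. Of the 8 markers, 6, 1 and 8 lay above 0. The markers' part in the signalling list's values was not tested. After withdrawal, cocaine against saline gave the auxiliary subunits a median of -0.19 (3 above and 11 below 0; all genes 0.05), with the AMPA receptor auxiliary gene Cacng8 at -1.62 (SE 0.76, edgeR adjusted p 1). In saline withdrawal against saline, the astrocyte transporter gene Slc1a2 had the smallest p of the transport list (-1.34, SE 0.50, edgeR adjusted p 0.742).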

How the data were processed

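Raw read counts per gene symbol in whole numbers, not normalized, were deposited by the authors for each of 26 libraries (24 immunopurified, 2 inputs). The submitters' processing notes name STAR 2.0.0e, HTSeq and mm10, a mouse build. Not given in the sources used here are the HTSeq version, annotation and strand setting, and reads of overlapping genes cannot be told apart. Of the 37 members, 32 overlap no other protein-coding gene in GENCODE M21 (GRCm38). The exceptions are Grin2d, Grin3a, Grin3b, Homer3 and Shank1. The 5 HTSeq summary lines were left out, and the 31735 genes shared by all files were used.

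Tests used R 4.3.3 and edgeR 4.0.16 (quasi-likelihood test, robust, with TMM scaling and Benjamini-Hochberg adjustment over all genes tested, threshold 0.05; genes kept by filterByExpr at a minimum count of 10), with DESeq2 1.42.0 as an alternative. One fit held the 24 immunopurified libraries, with a mean per group and a library set term (15854 genes). A second held 8 immunopurified libraries and the 2 inputs, with a term for the agent (14929 genes). All 37 members passed the filter in both fits. Standard errors were taken from the log2 fold change and its F statistic. Ratios were compared with exact two-sided permutation tests, with labels exchanged within library sets and adjustment over 12 tests. The scripts were tested on simulated counts. In none of 57 within-group pairs did counts agree within sampling noise (chi-square over its degrees of freedom at least 19.0), so each library was counted once.

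The text names every member's level or share of its family and, in each comparison, the 5 members with the smallest p, and up to 4 genes with the smallest p from each of the 3 other lists. A result that this rule would name is not reported here. The members, lists and markers were chosen with earlier results of these data known. The better measured members, those with a mean of at least 40 CPM, were set apart after the levels were seen. Alternatives were DESeq2, other scaling, no filter and a stricter filter on low counts, the replicate number as a block, each library set alone, other saline libraries, other lengths, and leaving out each library in turn.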

Additional observations from a re-analysis of the deposited data

Results flagged for a closer look

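In 111 sets of libraries (each member in each group of 5 to 8), a single library lay far from the rest of its group in 16 sets, by the gap to the nearest library over the range of the group. These concern 10 members and 13 libraries. For normally distributed values chance marks about 1 in 20 groups, and the rate for genes with many zeros was not measured. Of the well measured genes, Gria2 had 866 CPM in nonescalating replicate 3 (the nearest library of that group had 469 CPM). Grik5 had 368 CPM in nonescalating withdrawal replicate 4 of set 1 (nearest 145 CPM). Grm5 was lowest in saline withdrawal replicate 1 of set 1, at 215 CPM (nearest 318 CPM), the library with the second lowest sum over the 37 genes (4748 CPM). Grm7 had 139 CPM in saline withdrawal replicate 2 of set 2 (nearest 82.1 CPM).

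The other 12 sets concern genes at a few CPM. In nonescalating cocaine, replicate 4, the library with little Drd2, held 3.75 CPM of Grin2c (nearest 0.725 CPM) and 13.5 CPM of Grm2 (all others at 0). In the same group, replicate 1 held 15.1 CPM of Grin2d (nearest 3.42 CPM) and replicate 5 held 5.86 CPM of Grm8 (nearest 1.12 CPM). In nonescalating withdrawal, Grin2d had 25.8 CPM in replicate 3 of set 2 (nearest 7.28 CPM) and Grin3b had 8.87 CPM in replicate 2 of set 1 (nearest 1.37 CPM). Grm2 had 10.3 CPM in replicate 1 of set 2 of that group (nearest 4.27 CPM) and Homer3 had 3.72 CPM in replicate 1 of set 1 (nearest 0.61 CPM). In saline withdrawal, Grm2 had 7.87 CPM in replicate 3 of set 2 (nearest 1.71 CPM) and Homer3 had 2.29 CPM in replicate 3 of set 1 (nearest 0.546 CPM). Replicate 2 of set 2 of that group held 21.9 CPM of Grm8 (nearest 1.03 CPM) and no count of Grin3b, at 0 CPM (nearest 1.33 CPM).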

How the results depend on the processing

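No member passed edgeR's quasi-likelihood test under any alternative, and the sign of a named member's fold change turned in 1 of 436 fits without 1 library and in 4 of 285 other fits. DESeq2 called Grik1, 1 member, in escalating against saline and against nonescalating cocaine. Genes called by DESeq2 numbered 34 (nonescalating against saline), 143 (escalating against saline), 225 (escalating against nonescalating), 2 (cocaine after withdrawal), 30 (saline withdrawal against saline), 11 (interaction) and 757 (immunopurified against input). The cause of the difference between the tools was not tested. Immunopurified RNA against input gave 132 genes without a filter, 321 with the replicate block and 160 with the 16 immunopurified libraries of set 1, and 1 to 252 when 1 library was left out (252 if saline replicate 3 was left out, 148 if nonescalating replicate 3, 24 if saline replicate 4, 20 if nonescalating replicate 5, and 1 if either input). Escalating against nonescalating gave 1 gene with a stricter filter and 0 to 2 without 1 library, and escalating against saline 0 to 1.

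Signs turned for the interaction of Grin2c under the replicate block (-0.65) and without single libraries (-3.77 to 5.68, below 0 without saline replicate 4), for Grm8 (0.81) and Grm7 (0.16) after withdrawal in set 1 alone, and for Shank3 in nonescalating cocaine against saline withdrawal of set 1 (0.026). Per coding length the median log2 ratio over the libraries turned to -0.39 for Gria1 to Gria2, 0.51 for Grin2b to Grin1, -0.49 for Grm3 to Grm5 and -0.11 for Grm3 to Grm4. The members' median moved without saline replicate 3, to 0.35 (saline withdrawal against saline) and -0.37 (interaction). The Gria1 to Gria2 difference in saline withdrawal against saline was -0.61 without strata, with an exact permutation p of 0.0476. That test exchanged labels across library sets, and set 2 holds withdrawal libraries only, so its p cannot be told apart from library set. Without 1 library, the Gria1 to Gria2 difference ran from -0.46 to -0.20 after withdrawal. For nonescalating withdrawal against nonescalating cocaine, which mixes library sets, it ran from -0.29 to 0.16. The Grin2b to Grin2a difference ran from -1.45 to 0.54 (nonescalating against saline), -1.47 to 0.85 (escalating against saline), -0.88 to 1.44 (escalating against nonescalating), -0.76 to 0.038 (cocaine after withdrawal), -1.29 to 0.70 (saline withdrawal against saline) and -0.67 to 0.19 (nonescalating withdrawal against nonescalating). These signs turned without saline replicate 1, escalating replicate 1 or 2, nonescalating replicate 1 or 2, or saline withdrawal replicate 1 of set 1, and the cause was not tested.

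Replicate numbers were not taken as pairs, because not every same-numbered pair had deviations that correlated above 0.1. Because it asks this of every pair, the rule cannot show that libraries of equal number were unpaired. Over 25 same-numbered pairs r ran from -0.14 to 0.28 (median 0.083, 10 above 0.1), and over 90 pairs of other numbers from -0.31 to 0.26 (median -0.013, 22 above 0.1). Not every library correlated best with its own number (12 of 21 did). With the replicate block the count of members called was 0 in each comparison, although more genes passed in immunopurified RNA against input, as given above. Depth limits the 10 members under 40 CPM on average, and 1 input per agent limits all values against input.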
